A study of Mus musculus with 6 samples.

Results

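The genes described here encode proteins that cells make in response to interferons. A list of 48 mouse symbols defined the group, and 47 of them had an entry in the table of genes that the authors compared. The count tables held 46983 genes, of which 12336 had enough reads to be tested. All 47 members exceeded 1 CPM, the count relative to the scaled library total, in each of the 6 libraries, so no member entered through the genotype in which it was high. The remaining symbol was Ifitm3, which restricts virus entry at endosomes. It had too few reads for a test, with counts of 3, 1 and 2 in controls and of 12, 11 and 13 in Rnmt cKOs. The members were divided into 35 genes of the kind induced by type I interferon, called type I type here, and 12 GTPases of the GBP and IRG families.

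Naïve CD4 T cells of male mice gave 3 control and 3 Rnmt cKO libraries, made from total RNA after removal of rRNA and sequenced. RNMT adds the methyl group to the guanosine cap of mRNA, and the comparison asks how RNA levels differ in T cells that lack it. Cells were sorted from lymph nodes as live TCRb+, CD4+, CD62L+ and CD44- cells. Control animals were Rnmt fl/fl CD4cre - and Rnmt cKO animals were Rnmt fl/fl CD4cre +, so the floxed alleles were common to all 6 libraries. Cre was driven by Cd4 regulatory sequence and removes exon 3 of Rnmt from the double positive thymocyte stage onwards, so the cells developed partly with RNMT and the presence of Cre coincides with its loss. The study describes these libraries as coming from 3 mice of each genotype. Age is not given in the labels.

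Interferons bind receptors whose kinases activate STAT proteins. Under type I interferon STAT2 and IRF9 act in a complex that binds the interferon-stimulated response element (ISRE) in promoters. The gamma-activated site (GAS) is an element found in promoters of interferon gamma targets. T cells also hold part of this programme at a low level without infection. GBP and IRG GTPases, which attack membranes around intracellular pathogens, are known as strong targets of interferon gamma, although many of them also respond to type I interferon.

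The libraries held between 8873413 and 11277764 sense-strand counts in genes. Rnmt itself measured 51.5, 58.7 and 57.9 CPM in control replicates 1, 2 and 3 and 42.0, 37.5 and 26.6 CPM in Rnmt cKO replicates 1, 2 and 3. Every Rnmt cKO library was below every control, with a log2 fold change of -0.67 (adjusted p = 0.00035, edgeR exact test with Benjamini-Hochberg adjustment). Reads of the exons that remain were still counted, so this checks the labels only in part. The share of uniquely mapped reads that fell in no gene was 36.1%, 39.7% and 46.1% in the controls and 47.9%, 46.5% and 31.8% in the Rnmt cKOs. CPM values below follow the same order of replicates, fold changes are log2 of Rnmt cKO over control with the standard error (SE) from the 3 libraries per group, and adjusted p-values come from the same test over all 12336 genes.

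Of the 47 members, 21 were higher and 1 was lower in Rnmt cKO cells at an adjusted p under 0.05, and 25 did not pass. Among all tested genes, 8.0% were called higher and 6.84% lower, compared with 44.7% and 2.13% of the members. The log2 fold changes of the members ran from -0.27 to 1.49 with a median of 0.28, compared with a median of 0.01 over all tested genes, and 41 of 47 were above 0. In 23 members (48.9%) every Rnmt cKO library exceeded every control, which was so for 16.6% of all tested genes. In 1 member every Rnmt cKO library lay below every control, compared with 14.9% of all genes. The largest difference was that of Isg15, and the member called lower was Gbp7. The number called higher was 11 without Rnmt cKO replicate 1, 12 without control replicate 3 and 13 without control replicate 2. Calls of 10 members held in all 6 fits that each left out 1 library, namely Irf9, Isg15, Oas2, Mx1, Rtp4, Parp9, Dtx3l, Xaf1, Igtp and Iigp1.

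**Figure D1:**
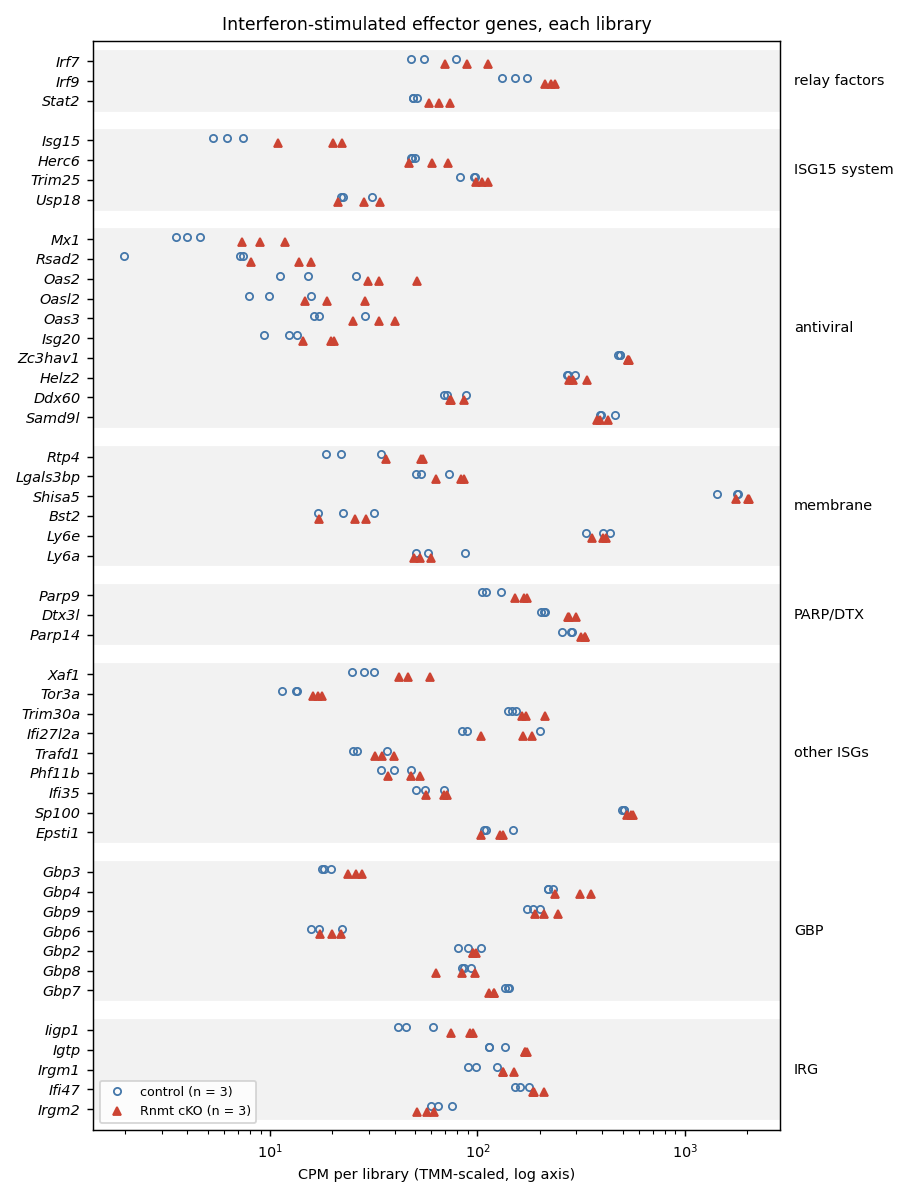
CPM (horizontal, log axis) of the 47 tested members in each of 3 control libraries (open circles) and 3 Rnmt cKO libraries (triangles), grouped by role. Shisa5 lies at 1423 CPM or more in every library and Mx1 below 12, and for most called members the triangles sit to the right of all circles.

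**Figure D2:**
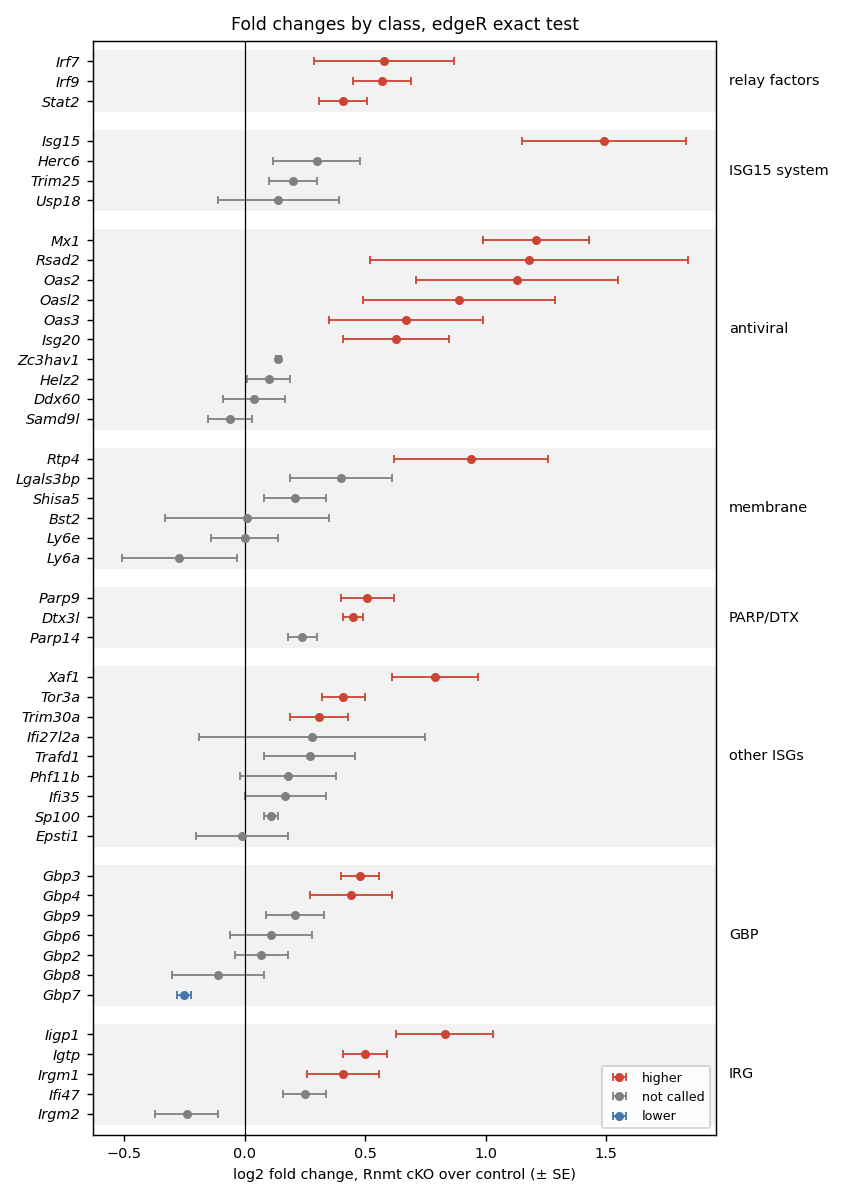
log2 fold change of each member, Rnmt cKO over control, with its standard error as a bar, grouped by role and coloured by the call of the edgeR exact test. Of the 47 points, 21 are called higher, 1 lower and 25 not called.

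Promoter windows from RefSeq (GRCm38.p6, around annotated start sites) were given for 32 of the 47 members. The ISRE was searched as GAAANNGAAA and the GAS as TTCNNNGAA, on both strands. An ISRE match was in 15 of these 32 members, compared with 3.99% of the 27025 genes with a window, and a GAS match was in 7, compared with 9.55%. Type I type members held an ISRE match in 9 of 25 and GBP and IRG members in 6 of 7. Among members called higher 8 of 14 held an ISRE match, among those not called 6 of 17, and the promoter of Gbp7, the member called lower, held a match too. These matches describe letters in the windows, and occupancy by any factor was not measured.

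The windows below show elements of some of the members that hold a match, among them those set side by side in the results. Among members called higher, Oasl2, Xaf1, Irf7, Irf9 and Dtx3l held neither an ISRE nor a GAS match in their promoter windows. No promoter window was given for several others called higher, among them Mx1, Oas2, Rtp4 and Iigp1. Capitals mark ISRE and GAS matches on either strand. The windows lie, on GRCm38.p6 and read along the strand of the gene, at chr4:156200871-156200900 (minus strand, Isg15), chr10:128270266-128270295 (plus strand, Stat2), chr12:26456553-26456582 (minus strand, Rsad2), chr5:120777715-120777744 (minus strand, Oas3) and chr8:71537583-71537612 (minus strand, Bst2). Those of the GTPases lie at chr3:142559992-142560021 (plus strand, Gbp3), chr3:142530273-142530302 (plus strand, Gbp7), chr11:48871428-48871457 (minus strand, Irgm1), chr11:58199507-58199536 (plus strand, Igtp) and chr11:58214898-58214927 (plus strand, Irgm2).
Isg15: gtagGAAAAGGAAACCGAAACAGAAAatag
Stat2: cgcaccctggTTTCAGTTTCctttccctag
Rsad2: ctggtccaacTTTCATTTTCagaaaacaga
Oas3: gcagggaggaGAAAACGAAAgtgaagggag
Bst2: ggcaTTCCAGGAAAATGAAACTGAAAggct
Gbp3: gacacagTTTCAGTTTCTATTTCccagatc
Gbp7: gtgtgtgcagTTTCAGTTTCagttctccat
Irgm1: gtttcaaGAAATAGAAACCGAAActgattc
Igtp: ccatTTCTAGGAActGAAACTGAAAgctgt
Irgm2: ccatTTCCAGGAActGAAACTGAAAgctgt

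Isg15 carried 3 overlapping ISRE matches in this window. The spelling GAAACTGAAA, read on either strand, was shared by Bst2, Gbp3, Gbp7, Igtp, Irgm2 and Stat2, and was present in the windows of 71 genes in all. Of these 6 members, Stat2, Gbp3 and Igtp rose, Gbp7 fell, and Bst2 and Irgm2 did not pass the test. Igtp and Irgm2 overlap on the same strand of chromosome 11, since the annotated span of Irgm2 begins inside that of Igtp. Their elements are almost the same. The window shown for Irgm2 lies within its annotated span, so its counts need not all come from transcripts that start there. Over the 21 bases from the start of the GAS match to the end of the ISRE match the windows differ by 1 substitution, T4C from Igtp to Irgm2, counted from 1 at the first base of the GAS match. Over 130 bases around the ISRE match 126 bases (96.9%) are the same, compared with 184 of 270 (68.1%) over the windows laid over each other at this match.

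**Figure D3:**
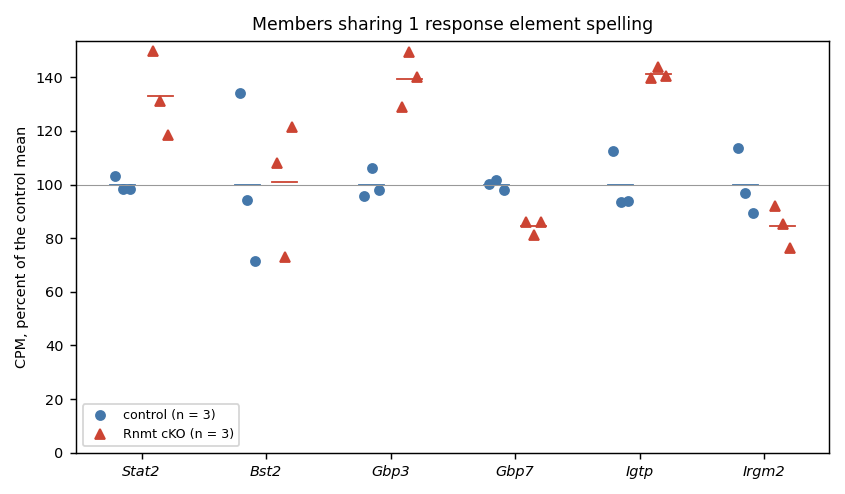
CPM in each library as a percent of the mean of the 3 controls for the 6 members that share the ISRE spelling GAAACTGAAA, with control libraries as circles, Rnmt cKO libraries as triangles and group means as lines. Triangles lie above all circles for Stat2, Gbp3 and Igtp, below all circles for Gbp7, and overlap them for Bst2 and Irgm2.

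The 3 members that relay the type I signal or transcribe its targets all rose. Irf9, the DNA-binding subunit that joins the STAT proteins, measured 172, 151 and 132 CPM in controls and 237, 212 and 227 CPM in Rnmt cKOs. All Rnmt cKO libraries were above all controls, and the log2 fold change was 0.57 ± 0.12 (SE, n = 3 per group, adjusted p = 1.72e-05). Irf7, the factor that amplifies interferon gene transcription, measured 79.1, 55.4 and 47.7 CPM in controls and 113, 69.8 and 89.3 CPM in Rnmt cKOs. Control replicate 1 lay above Rnmt cKO replicate 2, so the groups overlapped, and the log2 fold change was 0.58 ± 0.29 (adjusted p = 0.0309). Stat2, a subunit of the type I complex, rose by 0.41 ± 0.10 on the log2 scale (adjusted p = 0.00346). The call of Irf7 was lost without control replicate 2, control replicate 3 or Rnmt cKO replicate 1 (adjusted p = 0.192, 0.229 and 0.232). That of Stat2 was lost without Rnmt cKO replicate 1 (adjusted p = 0.0589), and Irf7 did not pass in the quasi-likelihood test (0.0816).

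In the ISG15 system 1 of 4 members rose. Isg15, a ubiquitin-like protein that is attached to other proteins, measured 7.41, 6.19 and 5.30 CPM in controls and 22.3, 11.0 and 20.1 CPM in Rnmt cKOs. Its lowest Rnmt cKO library was above its highest control, and the log2 fold change of 1.49 ± 0.34 (adjusted p = 1.8e-06) was the largest of the group. Herc6, the ligase that attaches ISG15 in mice, measured 48.6, 47.6 and 49.7 CPM in controls and 71.8, 60.7 and 47.0 CPM in Rnmt cKOs. Rnmt cKO replicate 3 lay below all controls (log2 fold change 0.30 ± 0.18, adjusted p = 0.172), and 26.6% of its exon bases also lie in exons of the same-strand gene Gm45193. Trim25, a ubiquitin ligase of the RIG-I pathway, measured 95.9, 81.9 and 97.5 CPM in controls and 105, 97.9 and 113 CPM in Rnmt cKOs. Its groups were separate by a narrow margin, and the log2 fold change was 0.20 ± 0.10 (adjusted p = 0.237). Usp18, which removes ISG15 and damps receptor signalling, had a log2 fold change of 0.14 ± 0.25 (adjusted p = 0.737).

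Antiviral effectors that act on RNA and nucleic acids gave 6 calls among 10 members, with a median log2 fold change of 0.65. Mx1, a dynamin-like GTPase that blocks viral replication, measured 4.58, 3.99 and 3.53 CPM in controls and 11.8, 8.94 and 7.35 CPM in Rnmt cKOs. The groups did not overlap, and the log2 fold change was 1.21 ± 0.22 (adjusted p = 3.76e-05). Rsad2, the radical SAM enzyme viperin, measured 7.17, 7.39 and 1.99 CPM in controls and 15.7, 8.10 and 13.8 CPM in Rnmt cKOs. Control replicate 3 stood well below the others, and the log2 fold change was 1.18 ± 0.66 (adjusted p = 0.0256). The oligoadenylate synthetase family is known for products that activate RNase L. Of its members, Oas2 rose by 1.13, Oasl2 by 0.89 and Oas3 by 0.67 on the log2 scale (adjusted p = 0.000989, 0.0157 and 0.0277). The exonuclease gene Isg20 rose by 0.63 (adjusted p = 0.0128).

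None of the 4 most abundant members of the same class passed. Zc3hav1, which encodes the zinc finger antiviral protein ZAP, measured 476, 485 and 486 CPM in controls and 537, 531 and 532 CPM in Rnmt cKOs. The groups were tight and separate, yet the log2 fold change of 0.14 ± 0.01 did not pass (adjusted p = 0.34). Samd9l, a translation repressor, measured 460, 395 and 389 CPM in controls and 425, 377 and 389 CPM in Rnmt cKOs. Those groups overlapped, with a log2 fold change of -0.06 ± 0.09 (adjusted p = 0.792) that was 0.06 with library size only. The helicase genes Helz2 and Ddx60 had log2 fold changes of 0.10 and 0.04 (adjusted p = 0.627 and 0.893). Among the called antiviral members, Rsad2 was lost without control replicate 3 (adjusted p = 0.0795) or Rnmt cKO replicate 1 (0.156). Without control replicate 2, control replicate 3 or Rnmt cKO replicate 1, Oas3 gave adjusted p = 0.209, 0.205 and 0.196, Oasl2 gave 0.13, 0.146 and 0.171, and Isg20 gave 0.058, 0.117 and 0.0911. Oas2 and Mx1 passed in every such fit. In the quasi-likelihood test Rsad2, Oas3 and Oasl2 did not pass (adjusted p = 0.0744, 0.075 and 0.0618), and in DESeq2 Rsad2 and Oas2 did not (0.247 and 0.0683). With the replicate number as a block, Rsad2 gave 0.142.

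Of 6 membrane and entry factors, 1 rose and the median log2 fold change was 0.11. Rtp4, a receptor transport protein, measured 34.4, 22.0 and 18.7 CPM in controls and 53.3, 36.2 and 54.4 CPM in Rnmt cKOs. All Rnmt cKO libraries were above all controls (log2 fold change 0.94 ± 0.32, adjusted p = 0.000467), and 15.2% of its exon bases also lie in exons of Gm45338. Shisa5, an endoplasmic reticulum protein linked to cell death, had the most counts of all members, with 1803, 1776 and 1423 CPM in controls and 2007, 1757 and 2038 CPM in Rnmt cKOs. Its groups overlapped, with a log2 fold change of 0.21 ± 0.13 (adjusted p = 0.289). Ly6e, a surface protein that limits virus entry, measured 437, 403 and 332 CPM in controls and 402, 356 and 415 CPM in Rnmt cKOs. No difference was measured for Ly6e (log2 fold change 0.00 ± 0.14, adjusted p = 1.0), and its sign turned in several alternatives. Lgals3bp, a secreted galectin ligand, measured 72.5, 53.6 and 50.3 CPM in controls and 83.0, 63.4 and 86.0 CPM in Rnmt cKOs, which overlapped (log2 fold change 0.40 ± 0.21, adjusted p = 0.0738). Bst2, the tether that retains budding virus, had a log2 fold change of 0.01 ± 0.34, and Ly6a, the Sca-1 antigen, of -0.27 ± 0.24 (adjusted p = 1.0 and 0.363).

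PARP9 and DTX3L form a complex of an ADP-ribosyltransferase and a ubiquitin ligase, and both of their genes rose. Parp9 measured 129, 106 and 110 CPM in controls and 168, 151 and 173 CPM in Rnmt cKOs, with no overlap (log2 fold change 0.51 ± 0.11, adjusted p = 4.99e-05). Dtx3l measured 208, 201 and 211 CPM in controls and 277, 274 and 297 CPM in Rnmt cKOs. Its libraries were close together within each group, and the log2 fold change was 0.45 ± 0.04 (adjusted p = 2.12e-05). Parp14, another ADP-ribosyltransferase, measured 287, 254 and 281 CPM in controls and 328, 329 and 314 CPM in Rnmt cKOs. Its groups were separate too, but the log2 fold change of 0.24 ± 0.06 did not pass (adjusted p = 0.0758).

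Among the 9 other type I type members 3 rose. Xaf1, a cell death regulator, measured 31.9, 28.3 and 25.0 CPM in controls and 59.1, 41.8 and 46.2 CPM in Rnmt cKOs. The groups were well apart (log2 fold change 0.79 ± 0.18, adjusted p = 8.28e-06). Tor3a, a torsin ATPase of the endoplasmic reticulum, measured 13.4, 13.5 and 11.4 CPM in controls and 17.0, 16.2 and 17.7 CPM in Rnmt cKOs (log2 fold change 0.41 ± 0.09, adjusted p = 0.0462). Trim30a, a tripartite motif protein that restrains Toll-like receptor signalling, measured 154, 141 and 147 CPM in controls and 212, 171 and 164 CPM in Rnmt cKOs (log2 fold change 0.31 ± 0.12, adjusted p = 0.0481). Neither gene's groups overlapped, but both calls are near the threshold. Leaving out any library ended the call of Tor3a (adjusted p from 0.0879 to 0.222), and that of Trim30a was lost in each such fit except the 1 without Rnmt cKO replicate 3 (0.0667 to 0.323). Neither passed in the quasi-likelihood test (0.0703 for Tor3a and 0.0787 for Trim30a) or in DESeq2 (0.165 and 0.0878). Sp100, a nuclear body protein, measured 507, 499 and 509 CPM in controls and 562, 550 and 524 CPM in Rnmt cKOs. It was higher in every Rnmt cKO library by a small amount (log2 fold change 0.11 ± 0.03, adjusted p = 0.518). The log2 fold changes of Ifi27l2a, Trafd1, Phf11b, Ifi35 and Epsti1 lay between -0.01 and 0.28, and none passed.

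The GBP GTPases went in different directions. Of 7 members, 2 rose, 1 fell and 4 did not pass, and the median was 0.11 on the log2 scale. Gbp3 measured 17.8, 19.7 and 18.1 CPM in controls and 23.9, 27.7 and 25.9 CPM in Rnmt cKOs. All of its Rnmt cKO libraries exceeded all controls (log2 fold change 0.48 ± 0.08, adjusted p = 0.00314). Gbp4 measured 230, 218 and 219 CPM in controls and 354, 313 and 237 CPM in Rnmt cKOs. Rnmt cKO replicate 3 lay just above the controls, and the log2 fold change was 0.44 ± 0.17 (adjusted p = 0.0131). Gbp9 measured 200, 173 and 184 CPM in controls and 243, 210 and 190 CPM in Rnmt cKOs, which overlapped (log2 fold change 0.21 ± 0.12, adjusted p = 0.241). Gbp7, shown here for its direction and not by the rule on named genes, measured 140, 142 and 136 CPM in controls and 120, 113 and 120 CPM in Rnmt cKOs. The groups were tight and separate, and the log2 fold change was -0.25 ± 0.03 (adjusted p = 0.0392).

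Gbp3 and Gbp7 are neighbours on chromosome 3 and hold the same ISRE spelling in the windows shown above. The promoter of Gbp7 also held 2 GAS matches outside the stretch shown, whereas that of Gbp3 held none. The call of Gbp7 held only without Rnmt cKO replicate 3, and otherwise its adjusted p was 0.089 to 0.215 when a library was left out. In the edgeR quasi-likelihood test and DESeq2 its adjusted p was 0.0514 and 0.0663. Gbp3 was lost without Rnmt cKO replicate 2 (adjusted p = 0.0613). Gbp4 was lost without control replicates 2 or 3 or Rnmt cKO replicates 1 or 2 (0.101, 0.0865, 0.139 and 0.0805). The log2 fold changes of Gbp6, Gbp2 and Gbp8 were 0.11, 0.07 and -0.11. Reads of near-identical copies are a limit in this family. Of the 75-base stretches in its transcripts, Gbp6 shares 67.3% with other genes, among them Gbp10 and Gbp11, and Gbp7 shares 11.3%, whereas Gbp3 shares 2.06% and Gbp4 3.08%.

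In the IRG family 3 of 5 members rose, with a median log2 fold change of 0.41. Iigp1, an effector IRG protein, measured 61.3, 45.0 and 41.5 CPM in controls and 92.3, 95.3 and 74.6 CPM in Rnmt cKOs. The groups did not overlap, and its log2 fold change of 0.83 ± 0.20 (adjusted p = 2.38e-06) was the largest of the 12 GTPases. Igtp, a regulatory IRG protein also called Irgm3, measured 136, 113 and 114 CPM in controls and 169, 174 and 170 CPM in Rnmt cKOs. The 3 Rnmt cKO libraries were nearly equal and above all controls (log2 fold change 0.50 ± 0.09, adjusted p = 2.59e-05). Ifi47 measured 178, 152 and 161 CPM in controls and 187, 185 and 210 CPM in Rnmt cKOs. It was higher in each Rnmt cKO library than in any control, but the log2 fold change of 0.25 ± 0.09 did not pass (adjusted p = 0.0882). Irgm1, a regulatory IRG protein, rose by 0.41 ± 0.15 (adjusted p = 0.00957), and this call was lost without control replicate 2, control replicate 3 or Rnmt cKO replicate 1 (adjusted p = 0.111, 0.113 and 0.0861).

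Irgm2, chosen for description after its values were seen, measured 75.7, 64.6 and 59.5 CPM in controls and 61.4, 56.9 and 50.9 CPM in Rnmt cKOs. Its highest Rnmt cKO library lay above its lowest control, and the log2 fold change was -0.24 ± 0.13 (adjusted p = 0.193). This is the gene whose element differs from that of Igtp by the 1 substitution given above, and the difference between the fold changes of the 2 genes was not tested. In the annotation, 8.01% of the exon bases of Igtp also lie in exons of Irgm2.

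Set side by side, type I type members and GTPases had similar shares of calls and similar lowest fold changes, and the highest fold changes were of type I type members. Of 35 type I type members 16 rose (45.7%) and 0 fell, and their median was 0.30 on the log2 scale with a range from -0.27 to 1.49. None was lower at an unadjusted p under 0.05 in the edgeR exact test, and none was called lower by the quasi-likelihood test or DESeq2. Of 12 GBP and IRG members 5 rose (41.7%) and 1 fell, and their median was 0.23 with a range from -0.25 to 0.83. Log2 fold changes above 0.83 were measured in 6 type I type members, Isg15, Mx1, Rsad2, Oas2, Rtp4 and Oasl2. Under the quasi-likelihood test 10 type I type members and 5 GTPases were called higher. Calls among type I type members numbered 8 without Rnmt cKO replicate 1, 9 without control replicate 3 and 10 without control replicate 2, and those among GTPases were 3 in each fit that left out control replicate 2 or 3 or Rnmt cKO replicate 1 or 2. The difference between the classes was described and not tested.

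Libraries of the same genotype differed in the level of the whole group. The mean log2 CPM of the 35 type I type members, relative to the control mean, was 0.26, -0.06 and -0.20 in controls and 0.59, 0.23 and 0.45 in Rnmt cKOs. Control replicate 1 was thus slightly above Rnmt cKO replicate 2. For the 7 GBP GTPases the values were 0.08, -0.02 and -0.06 against 0.24, 0.16 and 0.00, which overlapped, and for the 5 IRG GTPases 0.22, -0.08 and -0.14 against 0.41, 0.36 and 0.29, which did not. Control replicate 1 was the highest control for 37 of 47 members (78.7%), compared with 35.6% of all tested genes. Rnmt cKO replicate 2 was the lowest Rnmt cKO library for 29 members (61.7%), compared with 29.9% of all tested genes. Among the libraries with fewer than 40% of unique reads in no gene (control replicates 1 and 2 against Rnmt cKO replicate 3), the ratio was above 0 for 30 of 35 type I type members (median log2 ratio 0.27) and for 8 of 12 GBP and IRG members (median 0.06). Among those with more than 46% (control replicate 3 against Rnmt cKO replicates 1 and 2) the numbers were 34 of 35 (median 0.41) and 9 of 12 (median 0.35). Of all 12336 tested genes 6115 and 6306 were above 0 in these sets. In each set 1 genotype had a single library, and members are not replicates, so these counts cannot separate genotype from the level of that library.

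**Figure D4:**
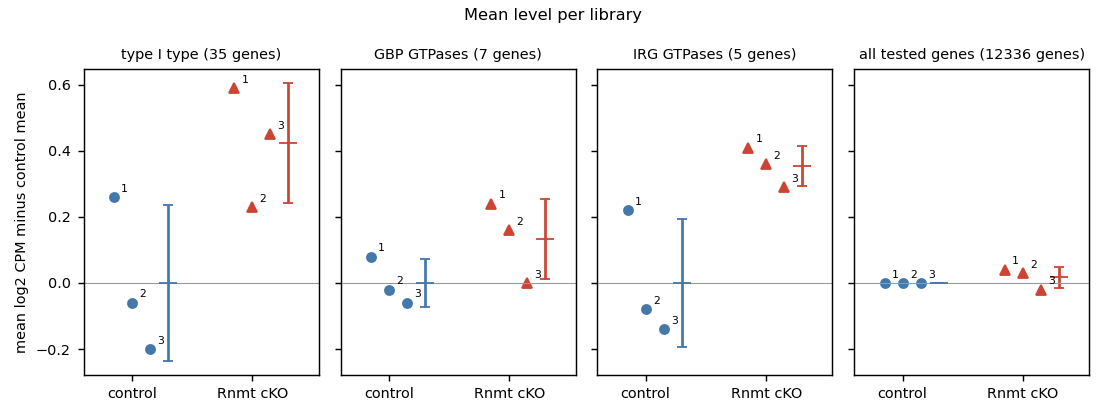
Mean log2 CPM of each class in each library, relative to the control mean, for 35 type I type members, 7 GBP GTPases, 5 IRG GTPases and all 12336 tested genes. Points are libraries with their replicate numbers, and bars are the mean ± SD of 3 libraries. Control replicate 1 (0.26) lies above Rnmt cKO replicate 2 (0.23) for type I type members, whereas the IRG groups are separate.

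The members spanned a wide range of levels in control cells. Per exon length (RPKM), the lowest mean levels were those of Mx1 (1.19) and Rsad2 (1.46), and the highest were those of Shisa5 (704), Ifi27l2a (268), Ly6e (159) and Sp100 (133). None of these 4 abundant members passed the test. The members were also split by their mean CPM over all 6 libraries. Of 28 members with a mean below 100 CPM 14 rose (50.0%), with a median log2 fold change of 0.40, and of the 19 others 7 rose (36.8%), with a median of 0.24. Among all tested genes the shares called higher were 7.72% of 10289 and 9.43% of 2047. This split is a description, and the values of both genotypes enter both this level and the fold change.

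**Figure D5:**
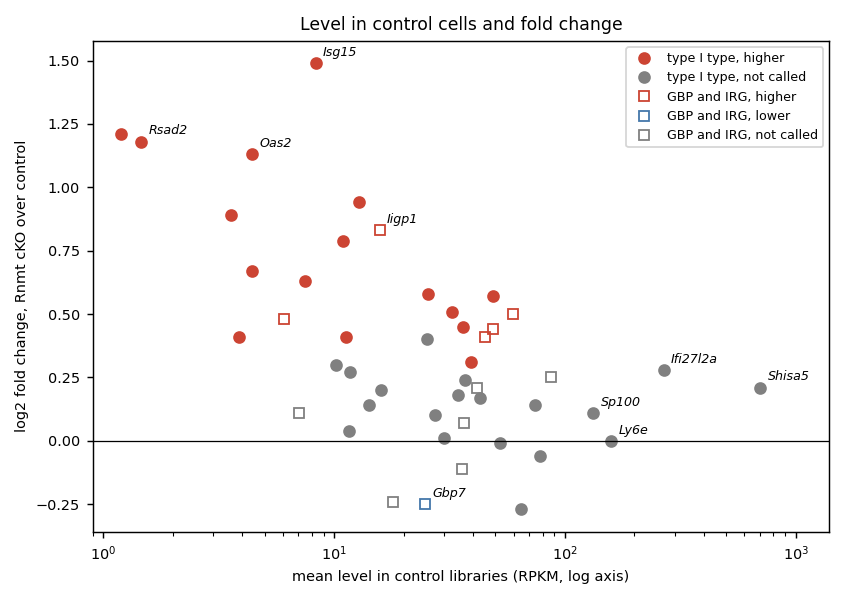
log2 fold change of each of the 47 members (vertical) against its mean level in 3 control libraries (RPKM, horizontal, log axis), with type I type members as filled circles, GBP and IRG members as open squares and colours for the call. Members with log2 fold changes above 0.60 all have fewer than 16 RPKM in controls.

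Other genes of the pathway were taken from lists of ligands, receptors, kinases and IRFs, negative regulators, sensors, IFITs and further GTPases. For comparison with the counts below, 8.0% of all tested genes were called higher and 6.84% lower by the exact test. The listed interferon genes themselves had 0 counts or close to 0, and of the interferon alpha genes only Ifna1, Ifna2 and Ifna4 were on the list. Of 9 ligand genes, 8 had 0 counts in every library and Ifng had 1 count, in Rnmt cKO replicate 3, and none was tested. A count of 0 allows up to 3 counts in a library of this depth, for counting error only. Among 5 tested receptor genes none rose in the edgeR exact test, at an unadjusted p under 0.05 or in either other tool. Il10rb, a shared subunit of the interleukin 10 and interferon lambda receptors, fell in this test (log2 fold change -0.42, adjusted p = 0.0217) and in the quasi-likelihood test (0.0479) but not in DESeq2 (0.0584), and Ifnar1, a type I receptor chain, measured -0.01. Of 9 kinase and IRF genes 3 rose, Irf4 by 0.45, Jak2 by 0.40 and Irf1 by 0.25, the last of which passed neither in the quasi-likelihood test nor in DESeq2 (adjusted p = 0.0641 and 0.071). Of 7 listed negative regulators 3 rose, Socs3 by 1.66, Socs1 by 0.91 and Irf2bp2 by 0.34.

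The sensors and adaptors gave 6 rises in 13 tested genes (46.2%), compared with 8.0% of all tested genes. These were Dhx58 (0.82), Eif2ak2 (0.77), Zbp1 (0.60), Ifih1 (0.49), Tmem173 (0.39) and Myd88 (0.38), which sense foreign nucleic acids or pass on the signal. Myd88 passed in neither the quasi-likelihood test nor DESeq2 (adjusted p = 0.0532 and 0.0617). In the IFIT family, which binds foreign RNA ends, Ifit3b rose by 1.48, Ifit3 by 1.04 and Ifit1 by 0.80, whereas Ifit1bl1 fell (-0.45). Ifit2 and Ifit1bl2 were measured at -0.10 and -0.72 and did not pass the exact test (adjusted p = 0.583 and 0.149). Ifit3 was lost in the quasi-likelihood test (adjusted p = 0.0607) and DESeq2 (0.209), and Ifit1bl1 in the quasi-likelihood test (0.0782). Ifit3 and Ifit3b share 41.1% and 35.7% of their 75-base stretches with other genes. Of 8 further GBP and IRG genes, Gbp11 rose by 1.02, while Gbp10 (-1.40) fell. Gbp2b measured at most 3.17 CPM in controls and 0.53, 0.76 and 0.18 CPM in Rnmt cKOs (log2 fold change -2.52), and it passed the filter on low counts only through the controls. Gbp10 shares 77.8% of its 75-base stretches with other genes.

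Markers of other cells and states were measured in the same libraries. The calls below stand beside 8.0% of all tested genes called higher and 6.84% called lower by the exact test. Summed over 7 T cell genes the level was 2997 to 3395 CPM in controls and 2889 to 3536 CPM in Rnmt cKOs. Cd4 was called higher by the exact test (log2 fold change 0.35) and Cd3g lower (-0.44). The 7 naïve T cell genes summed to 4489 to 4784 CPM in controls and 5314 to 5914 CPM in Rnmt cKOs. Of these, 3 were called higher and Il7r lower (-0.96). The 2 CD8 genes summed to 21.7 to 23.3 and 13.5 to 17.3 CPM. Of 4 tested memory and effector genes, Il2rb (0.39) and Eomes (1.23) were called higher and Cd44 (-1.05) and Prf1 (-1.22) lower. The 9 B cell genes summed to 45.6 to 53.6 CPM in controls and 59.1 to 98.5 CPM in Rnmt cKOs, and 5 of 9 were called higher by the exact test, 3 by DESeq2 and 1 by the quasi-likelihood test. The 11 myeloid genes summed to 9.18 to 12.5 CPM in controls and 16.7 to 32.6 CPM in Rnmt cKOs. Of 5 tested genes, Lyz2 and Mpeg1 were called higher by the exact test. Mpeg1 passed the filter on low counts only through the Rnmt cKOs, where it is high, and passed neither other tool. Cd14 was at 0 counts in all libraries but Rnmt cKO replicate 2. The B cell and myeloid sums were higher in every Rnmt cKO library than in every control, and both were highest in Rnmt cKO replicate 2. Of 7 listed plasmacytoid dendritic cell genes, whose sum was 88.4 to 95.8 CPM in controls and 70.2 to 75.2 CPM in Rnmt cKOs, Pacsin1 alone gave 67.6 to 76.9 and 53.7 to 56.7 CPM, so the sum is no measure of these cells. Of the 4 tested genes, Pacsin1 was called lower by the exact test (log2 fold change -0.40, adjusted p = 0.00109) and by both other tools. Ccr9 had a log2 fold change of -0.50 and its groups did not overlap, but it did not pass (adjusted p = 0.0898). Ly6d and Tcf4 had log2 fold changes of 0.26 and 0.08 and did not pass either. Of the defining markers, Siglech was at 0.54 CPM or less in every library and Cox6a2 was at 0 in all but Rnmt cKO replicate 3. The 12 proliferation genes summed to 233 to 261 CPM in controls and 505 to 544 CPM in Rnmt cKOs. Of the 7 that exceeded 1 CPM in every control 5 rose, and the other 5 (Ccnb2, Cdk1, Birc5, Aurkb and Bub1) passed the filter on low counts only through the Rnmt cKOs, where they are high. In these bulk samples a change in the number of cells of a type and in RNA per cell cannot be told apart, and the part of these cells and states in the members' differences was not tested.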

How the data were processed

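RNA from 3 control and 3 Rnmt cKO samples of naïve CD4 T cells was sequenced by the authors, who aligned reads to mm10 with STAR 2.5.2b and deposited raw counts per gene and library. Sense-strand counts were used. The deposited normalised signal columns of the authors' edgeR table served for symbols and to check the strand, and its fold changes and p-values were not used.

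Genes above 1 CPM in 3 or more libraries were tested with edgeR 4.0.16 (R 4.3.3, TMM scaling, exact test, tagwise dispersions) at a Benjamini-Hochberg adjusted p under 0.05. DESeq2 1.42.0, the quasi-likelihood test and the other alternatives are given at the end. SEs come from log2 CPM with a prior count of 2. The code was tested on simulated data. Totals of 8873413 to 11277764 counts set the counting precision. Coordinates and exon lengths came from GENCODE vM21, and promoters from RefSeq.

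Members and lists were chosen with earlier results of these data known. In each class of members, CPM per library is given for the 2 most abundant and the 2 with the largest fold change at a mean of at least 5 CPM. Pathway genes are named where they passed, and some ligand genes, Ifnar1, Ifit2 and Ifit1bl2 are named without passing. A pathway gene is not reported here.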

Additional observations from a re-analysis of the deposited data

How the results depend on the processing

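The number of members called higher, 21 of 47, was 19 with DESeq2 size factors or without a filter on low counts, 17 by the DESeq2 Wald test, 15 by the quasi-likelihood test, 20 with counts of either strand, 26 with the share of reads in no gene as a covariate and 30 with library size only. With library size only the median of all tested genes was 0.14, compared with 0.01, and that of GBP and IRG members was 0.35. The single lower call, Gbp7, became 0 with library size only, the quasi-likelihood test, DESeq2, no filter and counts of either strand, and was 0 to 1 when a library was left out. Type I type members called higher numbered 10 by the quasi-likelihood test. Leaving out each library gave 11 to 23 members called higher, 8 to 17 type I type members and 3 to 6 GBP and IRG members. Medians ran from 0.22 to 0.34, 0.22 to 0.43 and 0.18 to 0.29 in these fits. The cause of these shifts was not tested.

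The labels link libraries of the 2 genotypes by replicate number only. Deviations from the group means of libraries with the same number correlated at -0.213, -0.0164 and -0.345. With 3 libraries per group these values cannot show whether such libraries were prepared together. With the replicate block the quasi-likelihood test called 14 members higher and 0 lower, 11 of them type I type and 3 GBP or IRG.

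Across 26 named members and 16 settings, 414 values were compared, of which 349 kept direction and side of the threshold, 39 fell short of it, 18 passed it and 8 turned sign. Of those 8, Samd9l was 0.06 with library size only, and ran from -0.12 to 0.02 when a library was left out, above 0 without control replicate 1. Ly6e was -0.01 with DESeq2 size factors, the DESeq2 Wald test and a filter of 10 CPM, and ran from -0.10 (without control replicate 3) to 0.09 when a library was left out. Between 2 and 20 CPM, as for Rsad2, Mx1 and Isg15, few reads limit the precision.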
